A study of Homo sapiens with 6 samples.

Results

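The 6 RNA-seq libraries of the series were grouped by the level of one transcript, ALDH1A1, and the 2 sides were compared gene by gene. ALDH1A1 encodes aldehyde dehydrogenase 1 family member A1, and libraries with 100 FPKM or more of it (FPKM corrects a fragment count for transcript length and library size) were called ALDH1A1-high, the others ALDH1A1-low. This put 3 of the 6 libraries on the high side and 3 on the low side, so that no library of the series was left out. Because measured ALDH1A1 values chose the sides, the split is described here without any test, and nothing in it is offered as support for a difference between the labelled groups.

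All libraries came from HEC-1B, an established human cell line of endometrioid carcinoma of the uterus, and total RNA was made into cDNA with a SMART-Seq v4 kit, which does not mark strand. The high-potential accelerated group (2 libraries) is labelled as HEC-1B of high ALDH potential. The parental accelerated group (2 libraries) and the high-to-low group (2 libraries) carry the HEC-1B line name alone. In the titles both accelerated groups are marked ALDH-high accel and the high-to-low group ALDH-high to low. ALDH-high thus stands in the title of every library, also of those called ALDH1A1-low here. No agent, allele or engineered gene is named for any group. According to the series' text, cell sorting was used to establish whether the passage from an ALDH1A1-low to an ALDH1A1-high population was accelerated. The labels do not say how the high-potential line was made, how many clones it holds, or whether the paired libraries of a group came from separate cultures, so a test between groups measures only the spread between these libraries.

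ALDH1A1 is a cytosolic enzyme that oxidizes retinal, the aldehyde form of vitamin A, to retinoic acid, the ligand of the nuclear retinoic acid receptors, and it also detoxifies other aldehydes. Cells with high aldehyde dehydrogenase activity can be sorted from tumours and cell lines with a fluorescent substrate, and in endometrial and other carcinomas such cells are often studied as stem-like cells. The RNA level described here is not enzyme activity.

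ALDH1A1 was at 352.5 FPKM in high-potential accelerated 1, 303.6 in high-potential accelerated 2 and 316.9 in parental accelerated 2. It was at 26.7 FPKM in parental accelerated 1, 28.4 in high-to-low 1 and 9.44 in high-to-low 2. The library just inside the threshold thus had 303.6 FPKM and the one just outside it 28.4 FPKM, and no library lay between them. The library labelled parental accelerated 1 had the ALDH1A1 level of the high-to-low libraries, and its profile over all genes correlated most closely with that of high-to-low 1, at a Pearson r of 0.964 across genes, the highest of the 15 pairs of libraries, against 0.932 with parental accelerated 2. The sides therefore cut across the labels, and whether this library matches its label was not tested. The microRNA genes MIR659 and MIR568, described below, were found in both parental accelerated libraries and in no other, as the labels group them. They are the only 2 genes called in the later test of parental accelerated against high-to-low, so they were picked for following the labels. They therefore cannot decide whether this library matches its label.

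Several features limit what the split can show. The high-potential line has no ALDH1A1-low library, so that 2 of the 3 high libraries differ from every low library in cell line as well as in ALDH1A1. Within the parental line the high side is 1 library, parental accelerated 2, against 3. The number at the end of the description begins with 18 in high-potential accelerated 2 and parental accelerated 2 and with 17 in the other 4 libraries, and in the parental line what that number stands for and the ALDH1A1 level cannot be told apart. Values below are listed for high-potential accelerated 1, high-potential accelerated 2 and parental accelerated 2 on the high side, and for parental accelerated 1, high-to-low 1 and high-to-low 2 on the low side, in that order.

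The libraries held 14786 to 15386 genes above 0 and 11392 to 11726 genes at 1 FPKM or more. The files give FPKM without read totals, and the smallest values placed the depth of the libraries between 0.807 and 1.07 times that of high-potential accelerated 1. Small RNA genes took 9.04% to 18.7% of a library's summed FPKM. Markers of other cell types were low: of 10 fibroblast markers and 9 endothelial markers none passed the filter described below, and COL3A1, DCN, FAP, POSTN and COL6A3 were listed at 0 in every library. Among 7 smooth muscle markers 2 passed, with a summed level of 8.64 to 10.1 FPKM in the high and 4.94 to 8.70 FPKM in the low libraries, most of it SMTN (at most 7.33 FPKM), whose part in the results was not tested. Of 14 neuron and glia markers 2 passed, led by TUBB3 at up to 10.4 FPKM. The epithelial marker EPCAM was present in each library, at 2.16 to 10.6 FPKM.

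A gene was said to go with ALDH1A1 where its lowest value in the 3 high libraries exceeded its highest value in the 3 low libraries, and against ALDH1A1 where the reverse held. The distance between those 2 values on the log2(FPKM + 1) scale is called its gap, and a gap of 1 is a 2-fold distance in FPKM + 1. Among the 12135 genes that reached 1 FPKM in 2 or more libraries, here called kept, 1405 (11.6%) went with ALDH1A1 and 1497 (12.3%) against it. Most gaps were narrow, with a median of 0.147 for the former and 0.171 for the latter. A gap of at least 1 was found for 19 genes (0.157%) with ALDH1A1 and for 44 genes (0.363%) against it. ALDH1A1 itself had the widest gap of its side, 3.38, as the rule made it likely to.

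The transcript furthest on the other side was KCNIP1, which encodes a calcium-binding partner of Kv4 potassium channels. It was at 2.73, 0.348 and 2.0 FPKM in the high libraries and at 52.3, 57.1 and 65.1 FPKM in the low libraries, a gap of 3.84. No library was intermediate, and the lowest KCNIP1 value was in high-potential accelerated 2. KCNIP1 was the only kept gene in a list of 9 Kv4 channel genes and their KCNIP partners, so the channels themselves, which were below the filter, could not be compared.

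THY1 and CD24, surface proteins used to sort stem-like cells, were less clear-cut. THY1 stood at 154.5, 108.5 and 8.04 FPKM in the high and at 297.1, 313.9 and 272.5 FPKM in the low libraries. It went against ALDH1A1 with a gap of 0.81, and its lowest value by far was in parental accelerated 2, where CD24 was also lowest. CD24 was at 39.7, 14.8 and 0.253 FPKM in the high and at 215.5, 206.5 and 29.8 FPKM in the low libraries. Its sides overlapped, since high-potential accelerated 1 exceeded high-to-low 2, and without high-potential accelerated 1 a gap of 0.96 and without high-to-low 2 a gap of 2.35 against ALDH1A1 appeared.

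**Figure D1:**
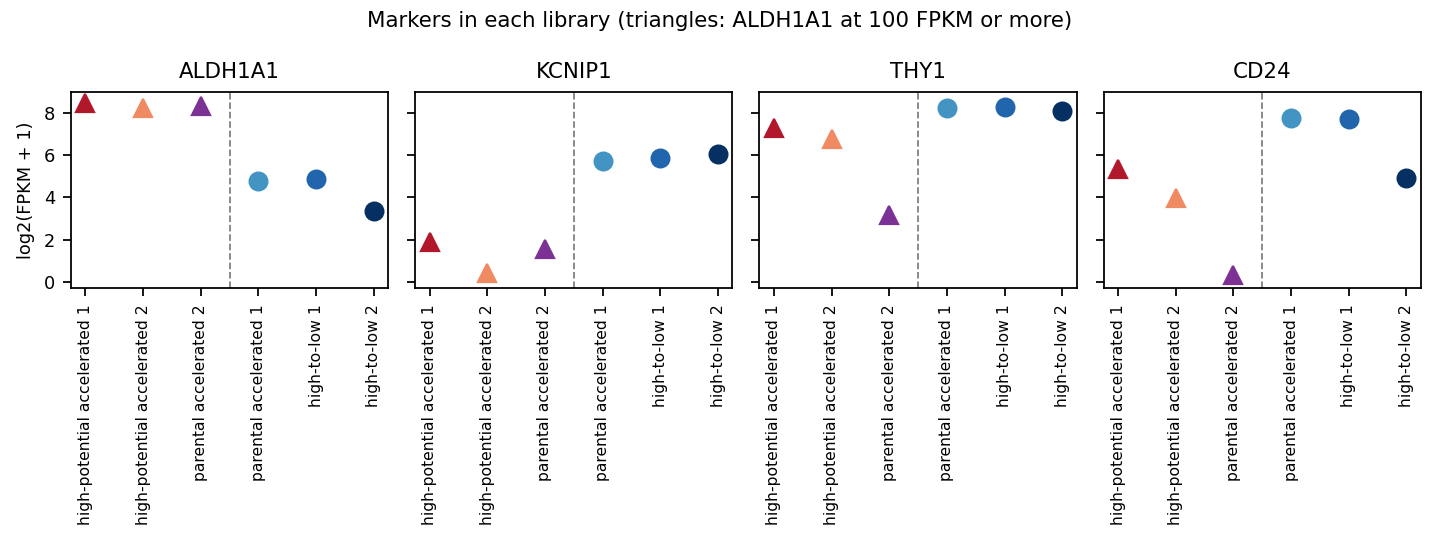
Level of ALDH1A1, KCNIP1, THY1 and CD24 in each library, as log2(FPKM + 1) on the vertical axis. Each point is 1 library, triangles are ALDH1A1-high and circles ALDH1A1-low, and the dashed line parts them. ALDH1A1 and KCNIP1 part the libraries without intermediate values, THY1 is lowest in parental accelerated 2 at 8.04 FPKM, and CD24 overlaps.

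Sequences around the starts are shown for the 2 coding genes of widest gap each way, with at least 2 FPKM throughout the higher side. They are the 250 bases before and 50 bases after the annotated start in RefSeq, build GRCh38.p14, printed 5′ to 3′ on the gene's strand. Capitals mark matches on either strand to the motifs searched, which were CCAAT for the CCAAT box, TATAAA for the box of that name, GGGCGG for the GC box, TGANTCA for the AP-1 motif and CACGTG for the E-box, none of which overlapped in these windows. For KCNIP1 the first of 2 listed starts is shown.
ALDH1A1, chr9:72953004-72953303 (minus strand): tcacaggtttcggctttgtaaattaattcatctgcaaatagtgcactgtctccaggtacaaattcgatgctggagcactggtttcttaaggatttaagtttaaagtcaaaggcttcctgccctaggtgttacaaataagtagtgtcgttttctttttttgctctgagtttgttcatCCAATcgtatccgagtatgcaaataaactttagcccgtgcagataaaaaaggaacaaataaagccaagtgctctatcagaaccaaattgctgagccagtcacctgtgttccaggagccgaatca
FGF18, chr5:171419397-171419696 (plus strand): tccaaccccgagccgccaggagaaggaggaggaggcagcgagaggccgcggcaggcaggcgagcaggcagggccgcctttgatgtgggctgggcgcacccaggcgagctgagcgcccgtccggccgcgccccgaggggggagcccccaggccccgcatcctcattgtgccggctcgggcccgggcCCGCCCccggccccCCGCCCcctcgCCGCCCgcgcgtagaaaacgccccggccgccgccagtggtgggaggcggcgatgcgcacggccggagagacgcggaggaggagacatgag
KCNIP1, chr5:170353237-170353536 (plus strand): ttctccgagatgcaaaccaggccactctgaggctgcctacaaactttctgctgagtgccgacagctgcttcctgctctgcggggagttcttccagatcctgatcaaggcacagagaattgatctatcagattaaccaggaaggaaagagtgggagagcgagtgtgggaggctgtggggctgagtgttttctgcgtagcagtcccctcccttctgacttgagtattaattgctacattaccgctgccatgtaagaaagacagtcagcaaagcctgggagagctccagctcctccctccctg
SHISA3, chr4:42397238-42397537 (plus strand): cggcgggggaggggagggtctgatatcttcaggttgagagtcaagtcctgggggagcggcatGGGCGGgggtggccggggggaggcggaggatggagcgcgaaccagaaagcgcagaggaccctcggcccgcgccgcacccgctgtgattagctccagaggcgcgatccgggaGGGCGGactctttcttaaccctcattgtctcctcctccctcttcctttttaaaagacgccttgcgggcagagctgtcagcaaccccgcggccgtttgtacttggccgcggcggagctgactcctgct

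The ALDH1A1 window held 1 CCAAT box and had a GC content of 40.3%, against a median of 58.3% over 27305 promoters of the same length. The FGF18 window held 3 GC boxes at a GC content of 77.7%, SHISA3 held 2 GC boxes, and KCNIP1 held none of these motifs. Over all promoters 35.7% held a CCAAT box, 12.0% a TATA box, 44.6% a GC box, 7.76% an AP-1 motif and 7.43% an E-box. Of the 16 coding genes named below that went with ALDH1A1, 13 matched a promoter, and 3 of these held a CCAAT box and 7 a GC box. Of the 15 named in the other direction 11 matched, with 2 and 5. A match is a description of the letters in this window.

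Among secreted factors, FGF18, a fibroblast growth factor, had the widest gap after ALDH1A1. It was at 3.48, 11.7 and 4.56 FPKM in the high and at 0.220, 0.429 and 0.329 FPKM in the low libraries, a gap of 1.65. FGF18 and KCNIP1, which moved in opposite directions, lie on chromosome 5 with 2 kept genes between them, RANBP17 and NPM1. RANBP17 went with ALDH1A1, as did FBXW11, the kept gene after FGF18. NPM1 and CCDC99, the kept gene before KCNIP1, overlapped between the sides.

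PLAT, the tissue-type plasminogen activator, was at 17.7, 28.2 and 10.2 FPKM against 2.17, 1.92 and 3.28 FPKM, a gap of 1.39. The insulin-like growth factor binding proteins IGFBP3 and IGFBP2, which hold IGF ligands outside the cell, both went with ALDH1A1. IGFBP3 was at 206.4, 388.9 and 17.3 FPKM in the high and at 4.71, 4.75 and 6.22 FPKM in the low libraries. IGFBP2 was at 68.3, 166.3 and 32.4 FPKM in the high and at 7.68, 10.5 and 13.7 FPKM in the low libraries. In both genes parental accelerated 2 stood above the low libraries but well below the high-potential pair, so that the gaps, 1.34 and 1.19, are set by that library. GPC4, a cell-surface heparan sulfate proteoglycan, was at 6.19, 5.24 and 7.87 FPKM against 1.92, 1.67 and 1.58 FPKM, with parental accelerated 2 as the highest library.

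Inside the cell, the transcription factor gene TFAP2C was at 5.88, 4.75 and 4.10 FPKM in the high and at 0.883, 0.892 and 0.439 FPKM in the low libraries. The zinc finger genes ZNF234 and ZNF415, both on chromosome 19, had gaps of 1.06 and 1.02. TMOD1, which caps actin filaments, LIMCH1, an activator of non-muscle myosin, and CDC42EP3, an effector of the GTPase CDC42, had gaps of 1.30, 1.27 and 1.01. The polarity gene MPP5 (now PALS1) was at 21.3, 20.7 and 22.5 FPKM against 8.20, 7.95 and 8.39 FPKM, with less spread within the sides than between them. EIF2S1, the alpha subunit of the initiation factor eIF2, was at 77.8, 102.6 and 81.3 FPKM against 27.9, 29.1 and 38.6 FPKM, and like MPP5 it lies on chromosome 14. BTG3 and LHFP (now LHFPL6) each had a gap of 1.07.

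The genes furthest against ALDH1A1 had wider gaps and included several that were at or near 0 on the high side. SHISA3, whose protein attenuates Wnt and FGF receptors, was 0 in the high-potential pair and 0.113 FPKM in parental accelerated 2, against 24.6, 22.7 and 10.3 FPKM in the low libraries. SEMA4A, a membrane-bound semaphorin, was at 3.37, 0.932 and 0.797 FPKM against 35.5, 42.5 and 26.3 FPKM. MIOX, the first enzyme of inositol breakdown, was at 0.0739, 0 and 0.163 FPKM against 4.53, 6.75 and 4.27 FPKM. In each of these 3 genes parental accelerated 2 was as low as, or near, the high-potential pair.

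NUPR1, a stress-induced chromatin protein, was graded on the high side, at 7.93, 0.520 and 24.6 FPKM, and reached 104.0, 126.2 and 135.6 FPKM in the low libraries. OLFML1, TSPAN1, TMEM200A and FABP3, the last a fatty acid carrier, had gaps of 2.10, 1.99, 1.76 and 1.74. PRICKLE1, a planar cell polarity gene, was even within the sides, at 9.12, 9.47 and 9.05 FPKM against 34.5, 32.1 and 32.3 FPKM. SPNS2, a sphingosine 1-phosphate exporter, was at 8.65, 3.43 and 1.02 FPKM against 36.6, 37.2 and 28.8 FPKM. The laminin chain gene LAMB3, the lipid flippase gene ATP10A, NME5 and the ankyrin gene ANK1 completed the 15, with gaps of 1.56, 1.52, 1.52 and 1.49.

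**Figure D2:**
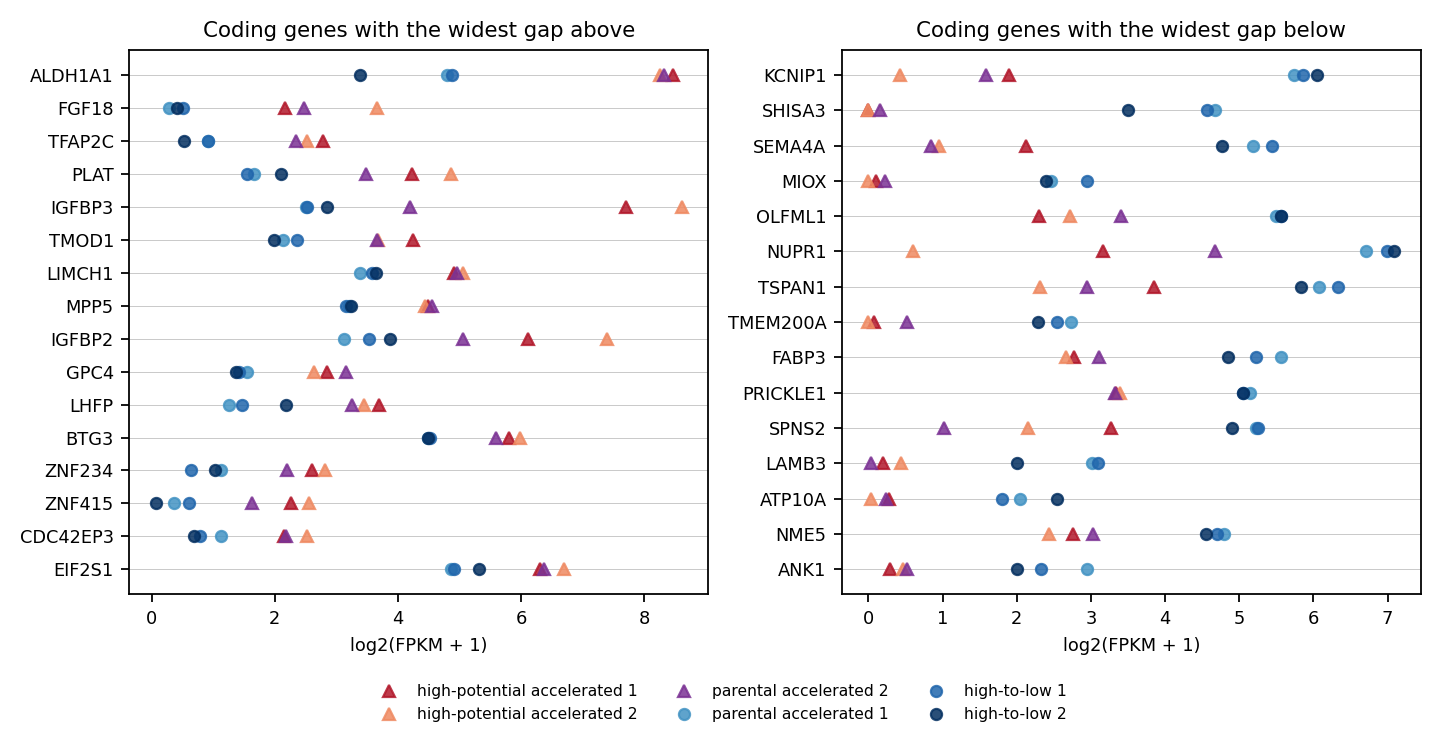
Level in each library, as log2(FPKM + 1) on the horizontal axis, of the coding genes with the widest gap in either direction. Each point is 1 library, triangles are ALDH1A1-high and circles ALDH1A1-low. The genes were chosen for the separation they show, and in IGFBP3 and IGFBP2 parental accelerated 2 lies between the low libraries and the high-potential pair.

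Of 521 kept noncoding genes, 29 (5.57%) went with ALDH1A1 and 28 (5.37%) against it, below the 11.6% and 12.3% of all kept genes. MIR1307 was at 6.04, 11.3 and 68.6 FPKM in the high libraries and listed at 0 in the 3 low ones, and SNAR-E was at 114.4, 1041 and 83.9 FPKM against 41.0, 0 and 0 FPKM. FPKM of such short genes rest on few fragments, and SNAR-E belongs to a family of near-identical copies between which reads may be split, so these values are uncertain. TRIM16L, a pseudogene that resembles TRIM16, had a gap of 0.45. Against ALDH1A1, SNORA64, ABCC6P2 and MIR31HG had gaps of 0.59, 0.55 and 0.46.

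Other patterns cut across the ALDH1A1 split. Both high-potential libraries stood above all 4 parental libraries in 1858 genes (15.3%) and below them in 2119 (17.5%). A gap of at least 1 was found in 123 (1.01%) and 85 (0.700%). SPARC, a matricellular protein, was at 74.9 FPKM or more in the high-potential libraries and at 0.325 FPKM or less in the other 4. In SPARC, the chemokine CCL2 and the complement component C3, parental accelerated 2 stayed at the level of the low libraries although its ALDH1A1 was high. In the other direction TESC, MECOM, TMEM47 and BEX2 were low in the high-potential pair alone, and MECOM, a transcription factor gene, was at 0.102 and 0.122 FPKM there against 11.1 FPKM in parental accelerated 2.

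Parental accelerated 2 stood above all 5 other libraries in 1852 genes (15.3%), with a gap of at least 1 in 11 (0.0906%). It stood below them in 2001 (16.5%), with such a gap in 45 (0.371%). PCSK5, a proprotein convertase, was at 29.3 FPKM in it and at 0.925 to 6.52 FPKM elsewhere. HNMT, MPZL2 and TINAG followed, with gaps of 1.21, 1.19 and 1.13. On the low end CD24 and THY1 led, with gaps of 3.66 and 3.60, and LAD1, an anchoring filament protein, and the hormone somatostatin (SST) followed at 2.11 and 2.09. CD24 and THY1 thus had wider gaps for this 1 library than for the ALDH1A1 split.

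The labels allow a test only between the labelled groups. In high-potential accelerated against high-to-low, limma on log2(FPKM + 1) with Benjamini-Hochberg adjustment called 48 genes higher (0.396%) and 49 lower (0.404%) at an adjusted p under 0.05. With the replicate number as a block the same test called 301 higher and 643 lower, with no filter 30 and 9, and where 1 FPKM had to be reached in 3 or more libraries 15 and 31, so neither the number nor the balance of calls was stable. Here both libraries of one group are ALDH1A1-high and both of the other ALDH1A1-low, and the groups also differ in cell line. These are libraries that set the gaps, so a call adds no independent evidence. The difference in ALDH1A1 was 4.23 (log2, SE 1.09, limma adjusted p = 0.127) and that in KCNIP1 -4.79 (SE 1.26, limma adjusted p = 0.13), neither past the threshold, while with the replicate block KCNIP1 passed it (SE 0.926, limma adjusted p = 0.041) and ALDH1A1 did not (0.0726). The fit shares 1 estimate of spread with the parental accelerated pair, whose 2 libraries fall on opposite sides. Without parental accelerated 1 the limma adjusted p was 0.0372 for ALDH1A1 and 0.0298 for KCNIP1, and without parental accelerated 2 it was 0.0364 and 0.0299.

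In parental accelerated against high-to-low, limma called 2 genes higher (0.0165%), the microRNA genes MIR659 and MIR568, and 0 genes lower (0%), with 118 genes at an unadjusted p under 0.05. MIR659 was at 171.3 and 175.2 FPKM in the accelerated pair and MIR568 at 408.7 and 209.0 FPKM, both listed at 0 elsewhere. Neither went with or against ALDH1A1, and FPKM of such short genes rest on few fragments. With 1 FPKM required in 3 or more libraries, or without small RNA genes, 0 genes were called in this comparison. ALDH1A1 differed by 2.42 (SE 1.09, limma adjusted p = 1) and KCNIP1 by -2.29 (SE 1.26, limma adjusted p = 1). Without parental accelerated 2 the ALDH1A1 difference was 0.66 and the KCNIP1 difference -0.22, so that 1 library carried both. The 2 comparisons share the high-to-low libraries.

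Of the 1405 genes that went with ALDH1A1, 19 (1.35%) were called higher in the high-potential comparison, and of the 1497 against it, 28 (1.87%) were called lower, beside 0.396% and 0.404% of all genes. Both sets come from shared libraries, so a share above that of all genes is built in. With the replicate number as a block it was 132 and 346 genes, beside 301 higher and 643 lower among all 12135 genes in that fit. Of the genes with a gap of at least 1, the replicate block called 9 of 19 with ALDH1A1 and 20 of 44 against it. Without the block the called genes of such a gap were IGFBP3 and SNAR-E with ALDH1A1, and AFAP1L2 against it. AFAP1L2, an actin-associated adaptor, was named here after its values were seen. IGFBP3 rose by 5.46 (log2, SE 0.572, limma adjusted p = 0.0237), and the call was lost without any 1 library of the 2 groups (limma adjusted p = 0.0956 to 0.2), and with no filter (0.0582). SNAR-E lost its call with no filter (limma adjusted p = 0.063), without high-to-low 1 (0.139) and without high-to-low 2 (0.184). AFAP1L2 was at 4.29, 2.76 and 11.8 FPKM against 25.7, 33.0 and 57.6 FPKM. The difference of AFAP1L2 was -3.32 (SE 0.435, limma adjusted p = 0.0383), lost in the same way (0.123 to 0.276, and 0.075 with no filter).

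The genes were next read by pathway, in 25 lists whose members were taken from general knowledge. The lists were chosen with earlier results of these data known, so their shares are no independent evidence. Over all kept genes the mean of the high libraries differed from that of the low ones by a median of -0.01 on the log2 scale. List members passed the filter on their own values, so the counts below cover kept members alone and are descriptions. Members that reached 1 FPKM on 1 side alone were favoured toward that side by the filter itself. On the high side these include STRA6, CYP26A1, TNF, CCL2, IL8, BMP5, BMP7, PMEPA1, SMAD9 and AKR1B10. On the low side they include IFI44, OASL, NOTCH4 and FOSB.

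In the ALDH family 1 of 15 kept members, ALDH1A1 itself, went with the split it defines and 3 went against, where 11.6% and 12.3% of all kept genes did, so the counts say little about the family. ALDH2, the mitochondrial enzyme that clears acetaldehyde, was one of the 3, at 96.6, 41.6 and 95.0 FPKM against 164.1, 184.9 and 105.7 FPKM. ALDH7A1 and ALDH9A1 did so with gaps of 0.04 each, and the closest relative kept, ALDH1A3, was at 2.74 FPKM or less and overlapped. Of 15 kept genes of retinoid uptake, synthesis, breakdown and reception, 0 went with ALDH1A1 and 1 against, not far from the shares of all genes, and 11 had a higher mean on the high side (median difference 0.23). The 1 against was RARRES3, a retinoid-responsive phospholipase, at 13.4, 6.27 and 6.10 FPKM against 25.6, 26.3 and 16.8 FPKM. RDH10, which makes retinal, the substrate of ALDH1A1, was at 163.7, 127.8 and 11.0 FPKM against 43.2, 40.4 and 22.1 FPKM, highest in the high-potential pair and lowest in parental accelerated 2. The retinol transporter STRA6 and the retinoic acid hydroxylase CYP26A1, named here after their values were seen, were also high in that pair alone. STRA6 was at 9.74 and 11.4 FPKM there and at 0.189 FPKM or less in the other 4 libraries, a rise of 3.53 (SE 0.239, limma adjusted p = 0.00607) over high-to-low, lost without high-potential accelerated 2 (0.0651) or high-to-low 2 (0.0528). CYP26A1 was at 4.31 and 15.7 FPKM against at most 0.709 FPKM.

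Among 18 kept NF-kB targets and cytokines, 7 went with ALDH1A1 and 0 against, beside 11.6% and 12.3% of all kept genes. The median difference was 1.09, with a higher mean on the high side in all 18. TNF, CCL2 and IL8 reached 1 FPKM in the high-potential pair alone, so the filter itself favoured a higher mean there. NFKBIE, an inhibitor of NF-kB, was at 26.5, 39.7 and 11.6 FPKM against 9.43, 8.42 and 8.81 FPKM. CSF1, the macrophage growth factor, was at 29.5, 47.6 and 9.97 FPKM against 7.98, 8.62 and 6.48 FPKM. In both, parental accelerated 2 lay just above the low libraries, and the 7 gaps were at most 0.38 (NFKB2). CCL2 was at 23.9 and 39.3 FPKM in the high-potential pair and listed at 0 in parental accelerated 2, and IL8 at 16.3 and 27.8 FPKM against 0.0668 FPKM there. The level of the list was therefore mostly that of the high-potential pair. NFKBIE rose by 1.80 (SE 0.251, limma adjusted p = 0.046) and CSF1 by 2.18 (SE 0.291, limma adjusted p = 0.0407) in high-potential accelerated against high-to-low. Without any 1 library of those 2 groups the adjusted p lay between 0.104 and 0.272 for NFKBIE and between 0.0956 and 0.266 for CSF1, and the calls were lost under 9 and 7 of 14 alternatives.

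Among 16 kept TGF-beta and BMP targets and ligands, 6 went with ALDH1A1 and 0 against, with a median difference of 0.77. The shares of all kept genes were the same 11.6% and 12.3%. BMP5, BMP7, PMEPA1 and SMAD9 reached 1 FPKM in high libraries alone, so the filter itself favoured the high side in them. CTGF, a matricellular target, was at 210.1, 161.3 and 265.2 FPKM against 142.9, 127.1 and 97.9 FPKM, with parental accelerated 2 highest. The inhibitory SMAD7 was at 10.8, 11.7 and 7.14 FPKM against 5.83, 6.74 and 6.71 FPKM. BMP5 was at 14.2 and 9.88 FPKM in the high-potential pair and at 0.0509 FPKM in parental accelerated 2, hence barely above the 0 of the low libraries. BMP5 rose in the high-potential comparison (3.69, SE 0.261, limma adjusted p = 0.00607, or 0.0528 without high-to-low 2). SMAD9, BMP4 and PMEPA1 completed the 6. The most abundant targets, ID1, ID2 and CYR61, overlapped between the sides.

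In the interferon response list 10 of 30 kept members went against ALDH1A1 and 0 with it, beside 12.3% and 11.6% of all kept genes, with a median difference of -0.42. IFI6 was at 14.3, 16.0 and 15.6 FPKM in the high libraries and at 33.3, 40.4 and 37.1 FPKM in the low ones, a gap of 1.01 with little spread within a side. PSMB9, a subunit of the immunoproteasome, was at 30.6, 45.7 and 16.8 FPKM against 83.2, 82.3 and 89.1 FPKM, and its partner PSMB8 and the antiviral genes OAS1 and OASL had gaps of 0.58, 0.64 and 0.86. The abundant antigen presentation genes B2M and HLA-B overlapped, since they were lowest in parental accelerated 2 while high-potential accelerated 1 was within or above the range of the low libraries. B2M was at 1600, 1089 and 561.1 FPKM against 1710, 1831 and 1128 FPKM.

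In the Notch pathway 5 of 11 kept members went against ALDH1A1 and 0 with it, with a median difference of -0.37, and here too 12.3% of all kept genes went against. The ligand JAG1 was at 3.27, 5.50 and 2.11 FPKM against 34.4, 28.9 and 16.1 FPKM, a gap of 1.39. The target genes HEY1 and HES4 each had a gap of 0.26, and the feedback gene NRARP one of 0.06. HES1, the most abundant target, overlapped because high-to-low 2, at 12.9 FPKM, was the lowest of the 6 libraries. Among 13 kept surface markers of stem-like cells, THY1, CD44, EPCAM and ALCAM went against and 0 with, read against the same 12.3%. CD44, the hyaluronan receptor, was at 7.54, 4.72 and 18.2 FPKM against 22.6, 25.9 and 41.1 FPKM. It fell by 2.27 (SE 0.312, limma adjusted p = 0.044) in the high-potential comparison, a call lost under 9 of 14 alternatives, with the adjusted p between 0.122 and 0.275 without any 1 library of the 2 groups.

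Of 11 kept drug transporters 4 went against ALDH1A1 and 0 with, beside 12.3% and 11.6% of all kept genes. Under quantile normalization 3 went against. Among the 4, ABCC1 and ABCC2 had gaps of 0.01 and 0.05, and ABCC4 was at 20.2, 18.3 and 17.2 FPKM against 46.0, 44.6 and 29.8 FPKM. ABCC6 lies on chromosome 16 and its pseudogene ABCC6P2, with which it can share reads, moved with it. Among 14 kept AP-1 and immediate early genes, 3 (FOSB, FOSL1 and EGR1) went against and 1 (MYC) with, read against the same shares. MYC was at 68.5, 46.9 and 42.7 FPKM against 37.5, 34.0 and 30.5 FPKM. Of 23 kept NRF2 targets, 4 (HMOX1, SRXN1, AKR1B10 and GSR) went with and 1 (ABCC2) against, again read against the same shares. The most abundant, FTL, FTH1, NQO1 and TXNRD1, overlapped. Cell cycle genes (2 of 32 with, 0 against), the ATF4 response (0 of 20 with, 2 against), epithelial identity (0 of 11 with, 1 against) and mesenchymal identity (0 of 10 either way) were near or below the 11.6% and 12.3% of all genes. The same held for cholesterol synthesis, with 1 of 22 with and 2 against.

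**Figure D3:**
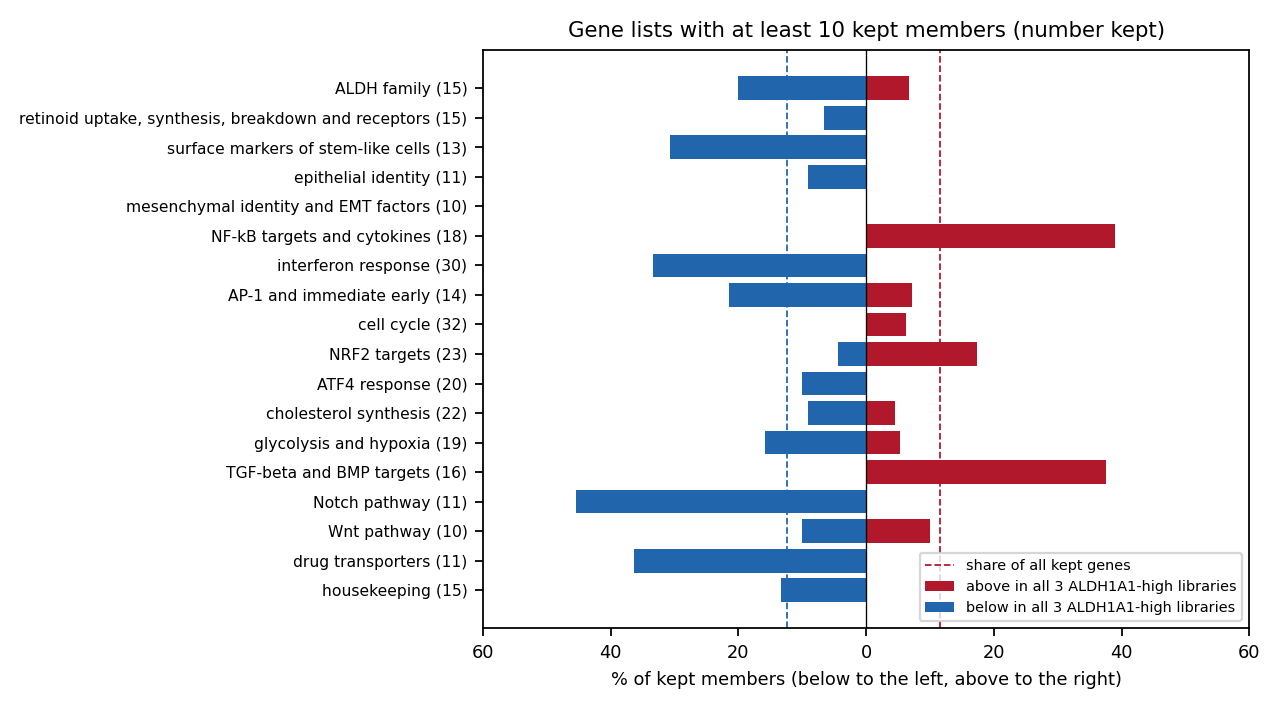
Share of the kept members of each gene list that stood above (to the right) or below (to the left) in all 3 ALDH1A1-high libraries, in percent on the horizontal axis, with the number of kept members in parentheses. Dashed lines give the share of all kept genes, 11.6% above and 12.3% below. NF-kB and TGF-beta lists lie to the right only, and interferon, Notch, surface marker and transporter lists to the left only.

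The genes of the split were unevenly spread over the chromosomes, a reading made after the values were seen. The share of kept genes that went with ALDH1A1 was at least 2 times the 11.6% of all genes on chromosomes 2 (30.5%), 8 (27.5%), 9 (24.7%), 14 (36.1%) and 21 (32.1%). These 5 chromosomes held 643 of the 1405 genes (45.8%) and 17.8% of all kept genes. The share against ALDH1A1 was as high on chromosomes 3 (28.0%) and 16 (37.8%), which held 391 of the 1497 genes (26.1%) and 9.96% of all kept genes. Of the genes with a gap of at least 1, 8 of 19 with ALDH1A1 (42.1%) and 8 of 44 against it (18.2%) lay on the same chromosomes.

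**Figure D4:**
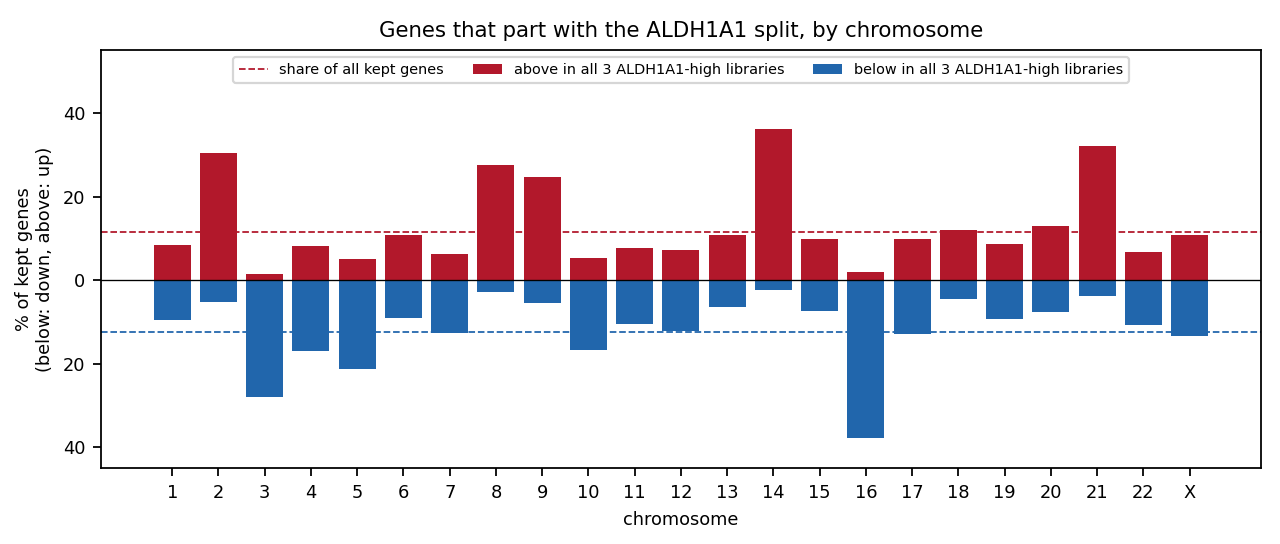
Share of the kept genes of each chromosome (horizontal axis) that stood above (upward bars) or below (downward bars) in all 3 ALDH1A1-high libraries, in percent on the vertical axis. Dashed lines give the shares over all kept genes. Chromosomes 2, 8, 9, 14 and 21 exceed 2 times the upper line and chromosomes 3 and 16 exceed 2 times the lower one.

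Within these chromosomes the genes were gathered in stretches, not all of them unbroken. The kept genes were cut into 578 windows of 20 neighbours in gene order, and 29 windows had at least 10 genes that went with ALDH1A1, of which 9 were on chromosome 2, 8 on chromosome 14, 5 each on chromosomes 8 and 9, and 1 each on chromosomes 17 and 21. Another 18 windows had as many against it, 11 of them on chromosome 16, 6 on chromosome 3 and 1 on chromosome 4. On chromosome 16 the 11 windows lay within a stretch of 12 from POLR3K to CDIPT and held 146 genes against ALDH1A1 out of 220. The median window there was lower than the high-to-low mean by 0.73 (log2) in high-potential accelerated 1, by 0.80 in high-potential accelerated 2 and by 0.43 in parental accelerated 2, and stood at 0.00 in parental accelerated 1.

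On chromosome 2 the 9 windows were scattered over a stretch of 21 between EIF2AK3 and COPS8. They held 113 of 180 genes with ALDH1A1, at window medians of 0.41, 0.49 and 0.53 in the 3 high libraries and 0.00 in parental accelerated 1. On chromosome 14 the 8 windows, within a stretch of 11 between MDP1 and TMED8, held 91 of 160 genes, at 0.43, 0.47 and 0.35. On chromosome 9 a run of 5 neighbouring windows from GAPVD1 to SURF2 held 58 of 100 genes, at 0.44, 0.45 and 0.60. The windows were chosen for genes in which all 3 high libraries stood to one side, which fixes the direction of these medians. On chromosome 8 the 5 windows, within a stretch of 7 between RPL23AP53 and FNTA, held 60 of 100 genes with ALDH1A1, at window medians of 0.68, 0.53 and 0.31. The 6 windows of chromosome 3, scattered over a stretch of 13 between HYAL3 and FAIM, held 65 of 120 genes against ALDH1A1, at -0.46, -0.56 and -0.29. On chromosomes 2, 3, 8 and 14, windows with fewer such genes lay between those counted. In the last 9 windows of chromosome 16, from CKLF to GAS8, the medians lay between -0.64 and -0.27 in the high-potential pair and between 0.02 and 0.22 in parental accelerated 2. DNA copy number was not measured in these files, and its part in these stretches was not tested.

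**Figure D5:**
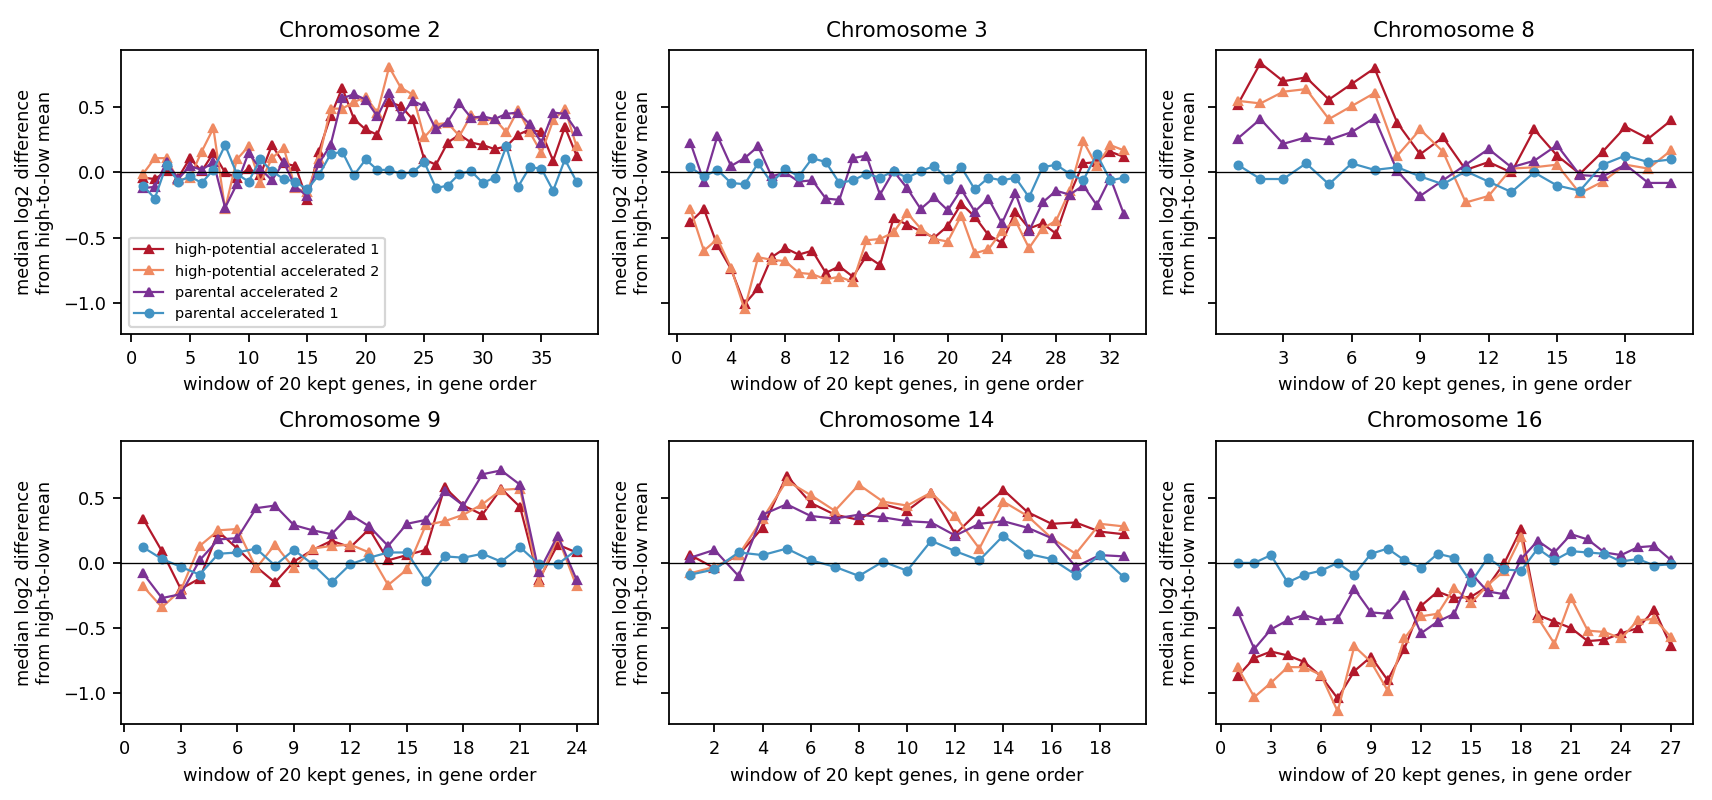
Median log2 difference from the mean of the high-to-low libraries (vertical axis) in successive windows of 20 kept genes (horizontal axis, in gene order) on the 6 chromosomes with at least 5 windows of the kind described. Each line is 1 library, with triangles for ALDH1A1-high and circles for ALDH1A1-low. On the first 12 windows of chromosome 16 the 3 high libraries lie between -1.14 and -0.20 and parental accelerated 1 between -0.15 and 0.11.

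ALDH1A1 itself is on chromosome 9, outside that run. The window that holds it had a median of 0.42 in parental accelerated 2 and of -0.03 and -0.04 in the high-potential pair, and the next 6 windows were also raised in parental accelerated 2, by 0.22 to 0.44. Among its 4 kept neighbours on each side, ANXA1, the next gene, which encodes the phospholipid-binding protein annexin A1, also went with it. ANXA1 was at 596.6, 1656 and 374.3 FPKM in the high and at 150.5, 150.0 and 208.7 FPKM in the low libraries, a gap of 0.84. C9orf40, the gene after it, had a gap of 0.04, and the other 6 overlapped.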

How the data were processed

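RNA-seq of 6 libraries was read as FPKM per gene symbol, the unit the authors deposited. Per the submitters' processing notes, TopHat2 2.0.13, Cuffnorm 2.2.1 and hg19 were used, while the settings are not stated in the sources used here. Of 23284 symbols, 21936 matched a RefSeq gene type (GRCh38.p14), used for names, types, gene order and promoters. From the FPKM, log2(FPKM + 1) was computed for the 12135 genes that reached 1 FPKM in 2 or more libraries. The ALDH1A1 split (100 FPKM) was described by gaps alone. Labelled groups were compared with limma 3.58.1 in R 4.3.3 (trend, 3 groups, no block, Benjamini-Hochberg adjusted p under 0.05), which was tested on simulated data. The members and lists were chosen with earlier results of these data known. Named were ALDH1A1, KCNIP1, THY1 and CD24, the 15 further coding genes with and the 15 against ALDH1A1 of widest gap with at least 2 FPKM throughout the higher side, 3 noncoding genes each way, 4 genes for each other pattern, and list members that went with or against it or were most abundant. Files without read totals give no counting interval. Alternatives changed the pseudocount, filter, scaling, small RNA genes, block, variance trend and libraries. The labels number the libraries of each group 1 and 2 without saying what a number shares. Deviations of equally numbered libraries from their group means correlated across genes in each pair of groups (Pearson r 0.187, 0.158 and 0.281). Results of a fit with the number as a block are therefore given as counts, and by name for KCNIP1 and ALDH1A1.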

Additional observations from a re-analysis of the deposited data

How the results depend on the processing

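Under another pseudocount, filter or scaling, or without small RNA genes, the counts with and against ALDH1A1 stayed within 1.5 times 1405 and 1497, and 0 of 231 gaps of the 39 genes followed changed sign. With fewer libraries more genes separate by construction: leaving out 1 library gave 1639 to 2587 genes with and 1703 to 2817 against (without parental accelerated 2, 2587 and 2817, and without high-to-low 2, 2569 and 2642), the parental libraries alone gave 3430 and 3658, and the libraries with a description number beginning with 17 gave 3923 and 4016. Over all alternatives 3 of 543 gaps changed sign, all in CD24, which went against ALDH1A1 with a gap of 0.96 without high-potential accelerated 1, 2.35 without high-to-low 2 (-0.40 to 2.35 when 1 library was left out) and 4.62 in the parental libraries alone. The 97 limma calls in high-potential accelerated against high-to-low became 54 with a pseudocount of 0.1, 39 with no filter, 46 where 1 FPKM had to be reached in 3 or more libraries, and 13 to 115 when 1 library was left out (22 without high-potential accelerated 1, 15 without high-potential accelerated 2, 21 without high-to-low 1 and 13 without high-to-low 2). Where a group is left with 1 library, that library is assumed to vary like the other groups. The 2 calls in parental accelerated against high-to-low became 4 with a pseudocount of 0.1, 0 with the filter on 3 libraries (109 at an unadjusted p under 0.05), 0 without small RNA genes (104 unadjusted) and 4 to 7 when 1 library was left out, and without parental accelerated 2 the differences of THY1 and CD24 turned to 0.02 and 1.44 (range -5.02 to 0.02 and -6.00 to 1.44 when 1 library was left out). The cause was not tested. A replicate block on the libraries' numbers raised the 97 calls to 944 and left the 2 at 2. In high-potential accelerated against high-to-low it called 9 of the 19 genes with a gap of at least 1 with ALDH1A1, and 20 of the 44 against it. Among all 12135 genes it called 301 higher and 643 lower. The libraries compared also set the gaps, so a share above that of all genes is built in. Of the genes whose limma difference is printed here, the block changed the call of KCNIP1 alone (limma adjusted p = 0.041). Calls on 2 libraries a group are limited by their number, and the depth behind a value is unknown.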
